A study of Homo sapiens with 6 samples.

Results

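The genes described are the trefoil factors TFF1, TFF2 and TFF3, the anterior gradient proteins AGR2 and AGR3, the secreted lectin REG4 and the transcription factor SPDEF, read by every array probe annotated to those 7 symbols. They had 9 probes of 47228 on the array, and 8 of these, for 6 of the 7 genes, passed the filter on dim probes that left 18165 probes and 10781 named genes for testing. Capan1 is a human line from a pancreatic adenocarcinoma that keeps a gland-like, mucus-producing character. It was seeded on gels of type I collagen and Matrigel that held either cells of the pancreatic stellate line PS1 or no stellate cells, and 3 samples of Capan1 with PS1 were compared with 3 of Capan1 alone. After 24 hours the gels were raised onto a grid and fed from beneath, and on day 10 the cancer cell layer was cut from frozen sections by laser microdissection. One label gives PS1 as the exposure of every sample, the 3 without stellate cells included, so the groups rest on titles and source names. Each cell type is represented by 1 line, and no source used here says that replicates came from separate cultures.

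Trefoil factors are small, disulphide-knotted peptides secreted with mucins by the epithelia of the gut. TFF1 and TFF2 mark the surface and neck cells of the stomach and TFF3 the goblet cells of the intestine. AGR2 is a protein disulphide isomerase of the endoplasmic reticulum that is needed for mucin folding in the mouse intestine, and AGR3 is its close paralogue. SPDEF is an ETS-family factor required for goblet cell maturation in the mouse, and REG4 is a secreted C-type lectin of the gut. Genes of this kind are expressed in the gland-like class of pancreatic cancer.

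Of the 6 tested genes 4 rose with stellate cells, TFF1, TFF2, TFF3 and AGR2, at a limma adjusted p under 0.05, against 2.65% of all tested genes. SPDEF and AGR3 had values above 0 that did not pass, and REG4 was not detected on any array. The log2 change was above 0 in 6 of 6 tested genes, against 51.8% of all, and in all 6 every normalised value with stellate cells lay above every value alone, against 14.6% of all tested genes. By probe, 5 of 8 passed as higher, against 2.01% of all tested probes, and 8 of 8 did not overlap, against 11.8%, which is also the share of all probes that lay wholly lower. In either direction 4.77% of all genes and 4.02% of all probes passed, and 18.3% of probes at an unadjusted p under 0.05. The median log2 change was 0.90 over these 6 genes and 0.015 over all tested genes. The mean of the 6 genes, each centred over the arrays, lay at 0.37, 0.52 and 0.60 for the stellate arrays in replicate order and at -0.53, -0.37 and -0.59 for the Capan1-only arrays.

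The DNA around the start sites of AGR2, AGR3 and SPDEF is shown because of the paralogues AGR2 passed the test and AGR3 did not, and SPDEF is the regulator among the genes. A RefSeq promoter was matched for 4 of the 7 genes, and each stretch runs from 250 bases before the start site to 50 after it in the build GRCh38.p14, read 5′ to 3′ along the gene. Capitals mark matches on either strand to any of the motifs searched. The motif of the TATA box was TATAAA, and that of forkhead factors was TAAACA. For ETS factors of the SPDEF type the core searched was GGATG, and for other ETS factors it was AGGAAG. For nuclear receptors it was GGTCA, the repeated core of an estrogen response element. A match on the opposite strand is printed as its reverse complement, and no matches overlapped.
AGR2, chr7:16804950-16805249, minus strand: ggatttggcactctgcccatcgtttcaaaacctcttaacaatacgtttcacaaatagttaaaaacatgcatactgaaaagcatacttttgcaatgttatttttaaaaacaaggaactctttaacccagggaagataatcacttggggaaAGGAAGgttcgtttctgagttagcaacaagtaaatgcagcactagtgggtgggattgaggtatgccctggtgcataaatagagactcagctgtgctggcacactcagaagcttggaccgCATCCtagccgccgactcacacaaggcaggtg
AGR3, chr7:16881934-16882233, minus strand: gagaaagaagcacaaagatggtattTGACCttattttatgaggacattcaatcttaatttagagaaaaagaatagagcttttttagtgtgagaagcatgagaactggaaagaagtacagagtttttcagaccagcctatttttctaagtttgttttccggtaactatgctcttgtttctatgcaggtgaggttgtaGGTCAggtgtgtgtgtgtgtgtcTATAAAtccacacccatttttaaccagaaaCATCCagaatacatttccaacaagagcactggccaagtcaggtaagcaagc
SPDEF, chr6:34556280-34556579, minus strand: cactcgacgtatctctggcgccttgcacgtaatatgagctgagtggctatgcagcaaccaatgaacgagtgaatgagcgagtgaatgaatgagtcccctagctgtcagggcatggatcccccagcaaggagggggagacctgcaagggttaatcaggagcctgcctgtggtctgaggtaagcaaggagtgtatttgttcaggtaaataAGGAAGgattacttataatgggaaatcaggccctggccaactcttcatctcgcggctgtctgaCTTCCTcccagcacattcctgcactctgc
The stretch of AGR2 held 1 AGGAAG, at position -101 from the start site, and 1 GGATG on the opposite strand at position 19. In AGR3 a TATAAA began at position -31, with GGTCA at -225 on the opposite strand and at -54 and GGATG on the opposite strand at -1. SPDEF held AGGAAG on both strands, at -42 and at 22. None of the 3 held TAAACA. Of 35116 promoters of this length 11.5% held TATAAA, 12.3% TAAACA, 40.8% GGATG, 33.6% AGGAAG and 37.4% GGTCA, so the matches describe these windows and are common elsewhere.

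By brightest probes TFF3 had the largest change of the 6 genes, with a dimmer probe of AGR2 close to it at 1.97 ± 0.22 (SE). The TFF3 probe, ILMN_1811387, had normalised log2 intensities, listed here and below in the order of replicates 1 to 3, of 10.34, 11.01 and 10.44 with stellate cells and 8.41, 8.85 and 8.45 alone. Every value with stellate cells was far above the highest alone, and replicate 2 was the highest array of each group. The means were 10.59 ± 0.36 and 8.57 ± 0.24 (SD, n = 3 arrays each), a log2 change of 2.03 ± 0.20 (SE, limma adjusted p = 0.00071) or 4.07-fold with a 95% interval of 3.00 to 5.52. This was rank 13 of all 18165 tested probes by size of rise. The deposited signals, before normalisation, separated as well, at 958, 2502 and 1141 intensity units with stellate cells against 577, 526 and 471 alone.

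TFF2 is a trefoil peptide with a pair of trefoil domains. Probe ILMN_1663919 had log2 intensities of 11.07, 11.25 and 11.19 with stellate cells and 10.21, 10.45 and 9.95 alone. The arrays with stellate cells lay close together, and the arrays alone were spread more widely below them. TFF2 rose by a log2 change of 0.96 ± 0.16 (SE, limma adjusted p = 0.0066), or 1.95-fold (95% interval 1.54 to 2.48). Without replicate 3 alone the change was 0.84 and missed the threshold (adjusted p = 0.0583).

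TFF1, first known as an estrogen-induced gene of breast cancer cells, had the smallest of the 4 rises. Its probe, ILMN_1722489, gave 8.82, 9.06 and 9.23 with stellate cells and 8.18, 8.22 and 8.22 alone. The arrays alone were nearly equal and the groups did not overlap. The log2 change was 0.83 ± 0.17 (SE, limma adjusted p = 0.0189), or 1.78-fold (95% interval 1.38 to 2.29). The call was lost on omitting the second stellate array (adjusted p = 0.0646) or any of the Capan1-only arrays (adjusted p = 0.0772, 0.0774 and 0.103), while the change stayed between 0.73 and 0.93 whichever array was left out.

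**Figure D1:**
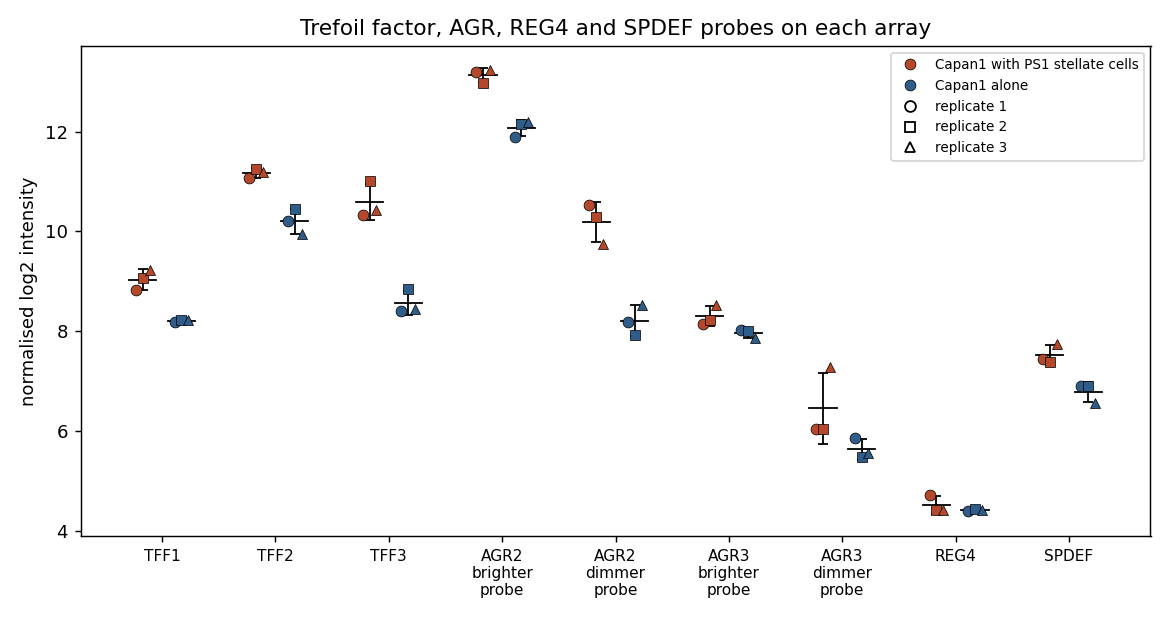
Normalised log2 intensity of the 9 probes on each of the 6 arrays (red, Capan1 with PS1, blue, Capan1 alone, symbols, replicates), with group means as bars and SD as error bars (n = 3). In the 8 tested probes all red points lie above all blue ones, most widely in TFF3 and the dimmer AGR2 probe, while REG4 lies between 4.41 and 4.73 on all arrays.

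The sizes of the trefoil changes were compared within arrays. The log2 difference between the TFF3 and TFF1 probes was 1.51, 1.95 and 1.21 with stellate cells and 0.23, 0.63 and 0.22 alone, so the fitted change of TFF3 was larger than that of TFF1 by 1.20 ± 0.25 (SE, n = 3). It was larger than that of TFF2 by 1.06 ± 0.19. In both pairs the groups did not overlap, and the two-sided exact permutation p was 0.1, the smallest that 3 arrays against 3 can give, or 0.15 adjusted over the 6 pairs compared here, which were chosen after the values were seen. Between TFF2 and TFF1 the difference in rise was 0.14 ± 0.17 and the groups overlapped (exact permutation p = 0.6).

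AGR2, the folding enzyme, was read by 2 probes, and both rose. The brighter probe, ILMN_3307841, had log2 intensities of 13.19, 12.97 and 13.23 with stellate cells and 11.88, 12.15 and 12.19 alone, a change of 1.06 ± 0.14 (SE, limma adjusted p = 0.0025) or 2.08-fold (95% interval 1.68 to 2.58). The dimmer probe, ILMN_1814151, read 10.53, 10.29 and 9.75 with stellate cells and 8.20, 7.92 and 8.54 alone, a change of 1.97 ± 0.22 (SE, limma adjusted p = 0.00099) or 3.92-fold (95% interval 2.81 to 5.48). On both probes the groups were well apart. The fitted change on the dimmer probe was larger by 0.91 ± 0.33 (SE, n = 3), and the difference between the probes did not overlap between groups. Its exact permutation p was 0.1, or 0.15 adjusted over the 6 pairs. That is the smallest p that 3 arrays against 3 can give, so the test could not decide whether the probes differ. Where the probes lie on the transcript was not analysed here. Deposited signals of AGR2 also separated, at 6332 to 9347 units with stellate cells and 4542 to 5219 alone for the brighter probe.

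AGR3, the paralogue of AGR2 known from ciliated airway cells in the mouse, did not pass on either of its 2 probes. The brighter probe, ILMN_1728787, had log2 intensities of 8.14, 8.24 and 8.53 with stellate cells and 8.02, 8.01 and 7.86 alone. The groups did not overlap but lay close together, with a change of 0.34 ± 0.18 (SE, limma adjusted p = 0.343) and a 95% interval of -0.05 to 0.73. The dimmer probe, ILMN_2050246, gave 6.05, 6.04 and 7.28 with stellate cells and 5.87, 5.48 and 5.56 alone. Its value of 0.82 ± 0.32 (adjusted p = 0.196) leaned on replicate 3 with stellate cells, without which it was 0.41 (adjusted p = 0.289). Set against AGR3 on the brighter probes, the change of AGR2 was larger by 0.72 ± 0.17 (SE, n = 3, exact permutation p = 0.1, or 0.15 adjusted), with no overlap of the groups. That difference was computed for the brighter probes only, and the dimmer AGR3 probe was not set against AGR2. Between the AGR3 probes the change on the dimmer was larger by 0.48 ± 0.32 (SE, exact permutation p = 0.2, or 0.24 adjusted), with overlapping groups.

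SPDEF had a value close to the threshold. Probe ILMN_2161330 gave log2 intensities of 7.44, 7.40 and 7.75 with stellate cells and 6.90, 6.91 and 6.56 alone. All arrays with stellate cells were above all arrays alone. The log2 change was 0.74 ± 0.21 (SE, limma adjusted p = 0.0682), or 1.67-fold with a 95% interval of 1.22 to 2.28. The size depended on the background step, being 0.60 with an offset of 50, 0.41 without background correction and 0.45 in the authors' table. None of these passed. Without replicate 3 with stellate cells the change was 0.63 and passed (adjusted p = 0.0436). That omission also raised the count of all tested probes at an unadjusted limma p under 0.05 from 3331 to 5087.

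REG4, the lectin, gave no signal above background. The signal of probe ILMN_2169383 was 88.8, 100.4 and 94.8 units with stellate cells and 103, 96.7 and 97.8 alone, with detection p between 0.388 and 0.949. No array of either group reached the detection threshold of 0.05, so no fold is given. By their brightest probes the other members of the REG family on the array, REG1A, REG1B, REG3A and REG3G, were likewise detected on none of the 6 arrays.

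The arrays themselves differed in brightness. Averaged over all probes, the deposited signal was 273, 449 and 335 units for the stellate arrays and 494, 384 and 414 for the Capan1-only arrays. Replicate 3 with stellate cells stood apart, with the fewest detected probes, 16325 against 17785 to 19602 on the others, and with a 28S ribosomal RNA probe at a log2 intensity of 12.85 against 5.97 to 8.32. KRT19, a duct cell keratin, was detected on all 6 arrays, as was the epithelial adhesion protein EPCAM. Of 14 duct cell markers 12 were tested, and 1 rose by the limma test and 0 fell, against 2.65% and 2.11% of all tested genes. The 1 was MUC1, at 1.19 (adjusted p = 0.0015, chosen after its value was seen). The summed normalised intensity of the duct list was 36850 to 44438 with stellate cells and 32409 to 37359 alone. Without replicate 3 with stellate cells the changes were 0.73 for TFF1, 0.95 for TFF2, 2.10 for TFF3 and 1.01 and 2.19 for the brighter and dimmer probes of AGR2, and 5 genes passed, SPDEF being added. Over all tested probes the count at an unadjusted limma p under 0.05 also rose on that omission, from 3331 to 5087.

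**Figure D2:**
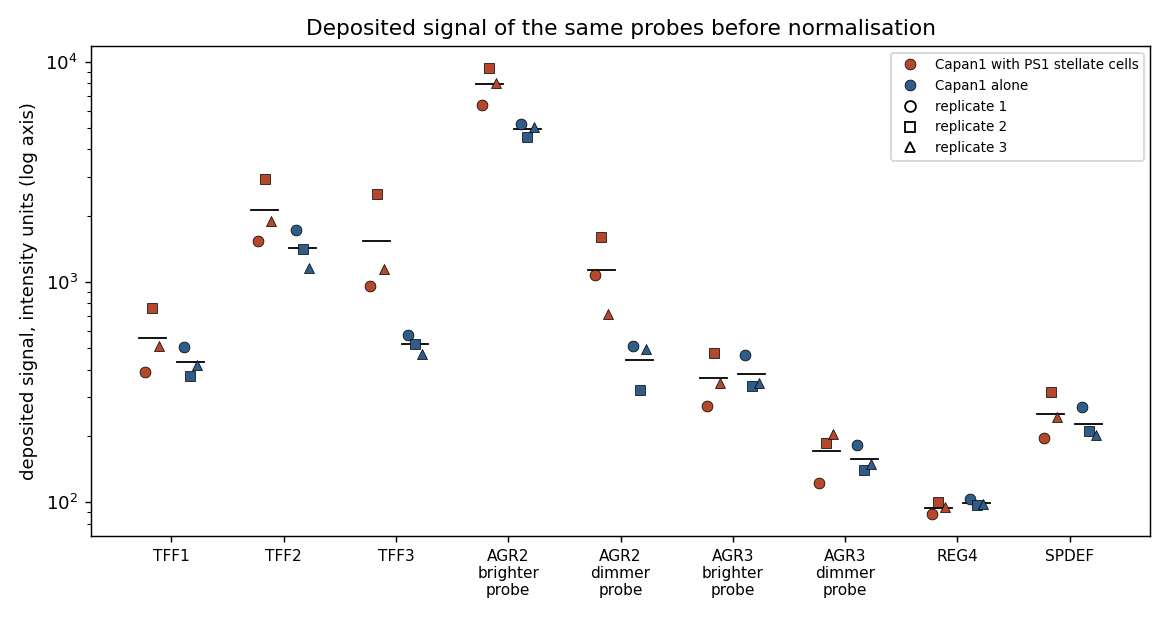
Deposited signal of the same 9 probes, in intensity units on a log axis, for each array, with horizontal bars at the group means. TFF3 and both AGR2 probes separate before any normalisation, while the groups overlap in TFF1, TFF2, AGR3 and SPDEF, where replicate 1 with stellate cells, the dimmest array, lies within the range alone or below it.

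Separation of the groups in the deposited signal was complete for 3 of the 8 tested probes, those of TFF3 and AGR2. The share of all probes that separated in the deposited signal was not computed. For TFF2 replicate 1 with stellate cells had 1535 units and replicate 1 alone 1721, and for TFF1 they had 392 and 507. SPDEF read 196, 315 and 244 units with stellate cells and 270, 210 and 201 alone. The values of TFF1, TFF2, AGR3 and SPDEF therefore depend on the scaling between arrays. With each array set to a common median in place of a common distribution, the median change of all tested probes was -0.20, and 2 genes passed, TFF3 and AGR2. The changes of TFF1 and TFF2 were then 0.57 and 0.71 (adjusted p = 0.394 and 0.164, tested against 0). Set against that shift, which was not tested, they were 0.77 and 0.91. Without any scaling between arrays the median of all probes was -0.34 and TFF3 was the single gene that passed (1.63, adjusted p = 0.0058), AGR2 having a value of 0.68 (adjusted p = 0.420) on the brighter probe, while its dimmer probe passed at 1.56 (adjusted p = 0.0119). Against the median of all probes the brighter AGR2 probe was at 1.01 in both settings. Of the 3 arrays with stellate cells 2 were dimmer than any without them, and with each array's mean brightness in the model TFF2, TFF3 and AGR2 passed while TFF1 was at 0.89 (adjusted p = 0.0834). In the authors' deposited value table the 8 tested probes did not overlap between groups, where the share over all probes was likewise not computed. TFF3 had values there of 1418, 2191 and 1514 with stellate cells and 449, 573 and 459 alone.

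**Figure D3:**
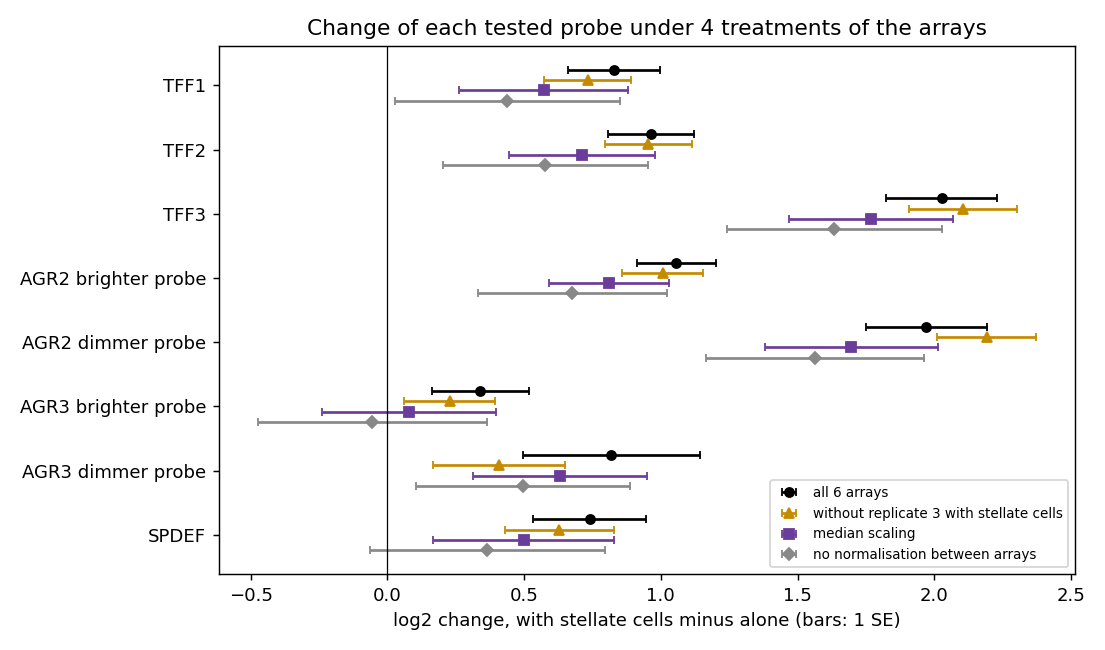
Log2 change of each tested probe, with stellate cells minus alone, with bars of 1 SE, for all 6 arrays (black), without replicate 3 with stellate cells (yellow), with median scaling (purple) and with no scaling between arrays (grey). TFF3 and the dimmer AGR2 probe stay above 1.5 throughout, and the brighter AGR3 probe reaches -0.05 without scaling, where the median of all probes is -0.34.

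Mucins and other mucus proteins, which are secreted with trefoil peptides, were taken as a list of 33 genes without the members. Of 21 tested genes 10 rose, against 2.65% of all tested genes, and the median log2 change was 0.91. PIGR, the receptor that carries polymeric immunoglobulin into mucus, had a change of 2.17 ± 0.21 (SE) and DMBT1, a mucosal scavenger protein, one of 1.68 ± 0.16 (limma adjusted p = 0.00054 for both). FCGBP, a mucus protein that forms disulphide-linked complexes with TFF3, had log2 intensities of 10.25, 9.86 and 9.48 with stellate cells and 7.89, 6.81 and 7.51 alone, a change of 2.46 ± 0.27 (limma adjusted p = 0.00094). The gut galectin LGALS4 reached the detection threshold on all 3 stellate arrays and on 0 of 3 others, so it entered the test through the stellate arrays. Its mean with stellate cells was 4.19-fold the lowest detected level under the background step used here, which is no lower bound on the rise. The size depended on the background step, the fitted log2 change being 2.48 here, 1.64 with an offset of 50, 1.02 without background correction and 1.16 in the authors' table, with the call kept in each. MUC6, the gland mucin that accompanies TFF2 in the stomach, was dim and had a value of 0.29 ± 0.30 (adjusted p = 0.667). GKN2, a gastric partner of TFF1, was not detected on any array. Earlier results of these data on mucus genes were known when this list was drawn up, so it is no independent evidence.

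Protein disulphide isomerases, the family of AGR2 and AGR3, were listed with other folding proteins of the endoplasmic reticulum, 25 genes in all. The oxidases and chaperones among these are not of the AGR2 family. Of 22 tested genes 3 rose, against 2.65% of all tested genes, with a median log2 change of 0.35. They were DNAJB9 and HSPA5, chaperones of the endoplasmic reticulum, at 0.86 ± 0.17 and 0.88 ± 0.21 (SE, limma adjusted p = 0.0176 and 0.0370), and CRELD2, a secreted protein of the stress response, at 0.66 ± 0.16 (adjusted p = 0.0425, or 0.0629 with the replicate number as a block). The disulphide isomerase PDIA4 had a value of 0.82 ± 0.22 (adjusted p = 0.0651). TXNDC12, the remaining AGR-family paralogue, had one of -0.44 ± 0.17 (adjusted p = 0.180, chosen after its value was seen). These calls were lost without any array other than replicate 3 with stellate cells, at adjusted p between 0.0568 and 0.197, and without that replicate 8 genes of the list passed, PDIA4 among them (adjusted p = 0.0163), while over all probes that omission raised the calls from 366 to 1360 higher and from 364 to 1398 lower.

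Transcription factors and sensors of secretory epithelium, taken without SPDEF, gave 2 higher and 1 lower of 19 tested genes, with a median of 0.19, against 2.11% of all tested genes lower. ELF3, an epithelial ETS factor, rose by a log2 change of 1.07 ± 0.17 (SE, limma adjusted p = 0.0048). ERN2, the stress sensor of mucus-secreting cells, read 7.93, 8.45 and 8.31 with stellate cells and 7.05, 6.26 and 6.81 alone, a change of 1.52 ± 0.24 (adjusted p = 0.0053). FOXA2, a forkhead factor of gut-derived epithelia, had values of 8.57, 8.77 and 8.71 with stellate cells and 9.48, 9.53 and 9.45 alone. FOXA2 fell by 0.80 ± 0.15 on the log2 scale (adjusted p = 0.0137), a call lost on omitting the first stellate array or any Capan1-only array (adjusted p between 0.0604 and 0.0857). CDX2, the intestinal homeobox factor, had a value of 0.80 ± 0.21 (adjusted p = 0.0515) and passed without replicate 3 with stellate cells (adjusted p = 0.0257). That replicate's omission took the list to 6 genes past the threshold, beside the same rise in calls over all probes.

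Receptors and partners reported for trefoil factors, AGR2 or REG4 were mostly dim: of 15 listed genes 11 had a probe and 6 were tested. FCGBP, which is also in the mucus list, was the single gene that passed, and the median was 0.07. Over all tested genes 2.65% passed as higher. EGFR, the growth factor receptor, had a value of -0.57 ± 0.18 (SE, limma adjusted p = 0.111), with every array with stellate cells below every array alone. A dimmer EGFR probe had a value of -0.04 ± 0.26 (adjusted p = 0.960). E-cadherin, CDH1, had one of 0.10 ± 0.23 (adjusted p = 0.864), whose sign turned on omitting the first or second stellate array. With median or no scaling it was below 0, and 0.032 above the median of all probes in both. CXCR4 and ACKR3, chemokine receptors reported to respond to trefoil factors, and LINGO2, a reported receptor of TFF3, were not detected on any array.

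Genes known to accompany TFF1, TFF3, AGR2, AGR3 and SPDEF in estrogen receptor-positive breast cancer were taken as a list of 15 without those 5. Of 9 tested genes 1 rose, against 2.65% of all, MLPH, an adaptor of vesicle transport, at 0.96 ± 0.19 (SE, limma adjusted p = 0.0166), and the median was 0.30. The estrogen receptor ESR1 was not detected on any array. CA12, a carbonic anhydrase, FOXA1, a forkhead factor, and the keratin KRT8 had values of 0.64 ± 0.18, 0.55 ± 0.16 and 0.36 ± 0.14 (adjusted p = 0.0681, 0.0804 and 0.197). All of these passed without replicate 3 with stellate cells (adjusted p = 0.0360, 0.0131 and 0.0366), an omission that raised the calls over all probes. The call for MLPH was lost on omitting the first or second stellate array or Capan1-only replicates 2 or 3 (adjusted p between 0.0638 and 0.0961).

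**Figure D4:**
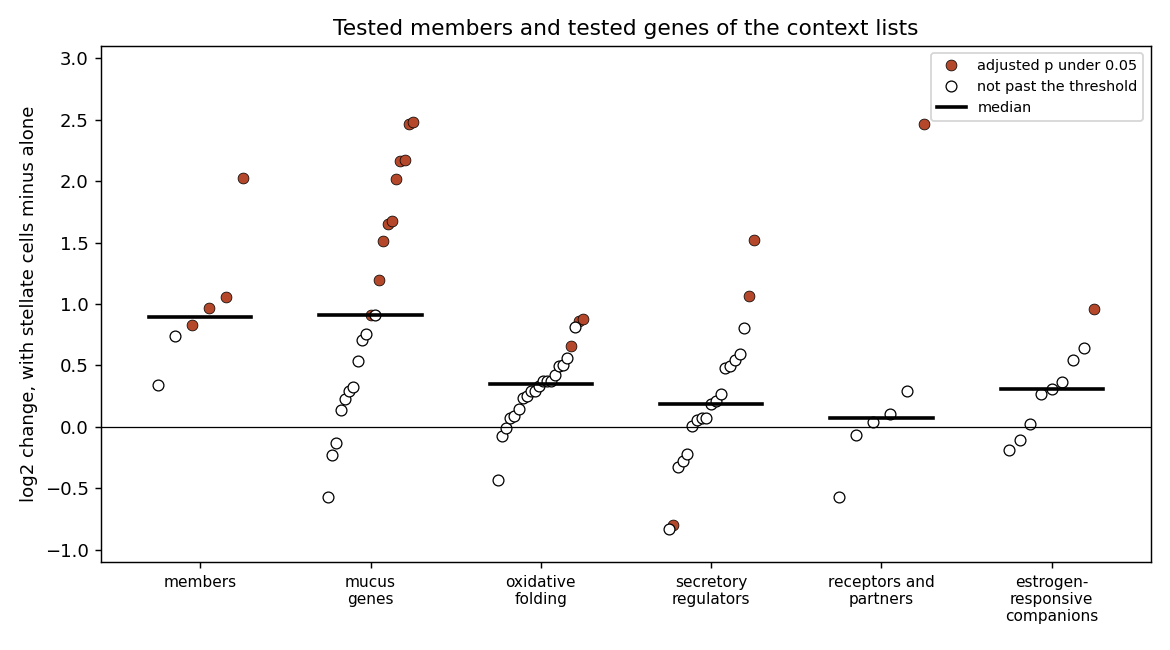
Log2 change of the 6 tested genes (members) and of each tested gene of the 5 lists with tested genes, with filled points past a limma adjusted p of 0.05, open points not past it and bars at the medians. The mucus genes have a median of 0.91, close to the 0.90 of the trefoil, AGR and SPDEF genes, and the other lists lie lower, at 0.07 to 0.35.

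The trefoil genes lie side by side on chromosome 21 and AGR2 and AGR3 on chromosome 7, so the 4 nearest protein-coding genes on each side were read from the RefSeq gene table. Around the trefoil genes 6 of 8 neighbours were tested and 2 rose, against 2.65% of all tested genes. TMPRSS3, a membrane serine protease, had log2 intensities of 8.23, 7.99 and 8.07 with stellate cells and 7.21, 7.18 and 7.52 alone, a change of 0.79 ± 0.19 (SE, limma adjusted p = 0.0368). RSPH1, a protein of ciliary radial spokes, read 7.29, 7.29 and 7.13 with stellate cells and 6.34, 6.16 and 6.11 alone, a change of 1.04 ± 0.20 (adjusted p = 0.0155). SLC37A1, a sugar-phosphate transporter beyond them, had a value of 0.58 ± 0.18 (adjusted p = 0.102) and no overlap of the groups. It passed without replicate 3 with stellate cells (adjusted p = 0.0114), an omission that raised the calls over all probes. On the TFF3 side ABCG1, a sterol transporter, had a value of 0.18 ± 0.27 on its brightest probe, ZBTB21 one of 0.21 ± 0.21 and C2CD2 one near 0, with overlapping groups in each. Another probe of ABCG1 was at 0.53 ± 0.24 (adjusted p = 0.271) with no overlap of the groups. The call for TMPRSS3 was lost without any array other than replicate 3 with stellate cells (adjusted p between 0.0806 and 0.167), and that for RSPH1 on omitting any of the same 4 arrays as for MLPH (adjusted p between 0.0633 and 0.103). The other 2 probes of TMPRSS3 had values of 0.47 ± 0.25 and 0.54 ± 0.29 (adjusted p = 0.364 and 0.361).

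Around AGR2 and AGR3 6 of 8 neighbours were tested. By their brightest probes 0 passed the limma test, against 4.77% of all tested genes in either direction. Over 6 genes 0 is close to that share. The neighbours' count at an unadjusted limma p under 0.05 was also 0, against 18.3% of all tested probes. Their log2 changes ran from -0.24 for HDAC9, a histone deacetylase, to 0.19 for AHR, the aryl hydrocarbon receptor, and all had overlapping groups. TSPAN13, which adjoins AGR2, had a value of -0.03 ± 0.23 on its brighter probe and 0.50 ± 0.16 on the dimmer (adjusted p = 0.967 and 0.118). On the dimmer TSPAN13 probe every array with stellate cells was above every array alone. The dimmer HDAC9 probe was at -0.77 ± 0.27 (adjusted p = 0.149), with every array with stellate cells below every array alone. The dimmer AHR probe was at 0.44 ± 0.27 (adjusted p = 0.428), with overlapping groups.

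**Figure D5:**
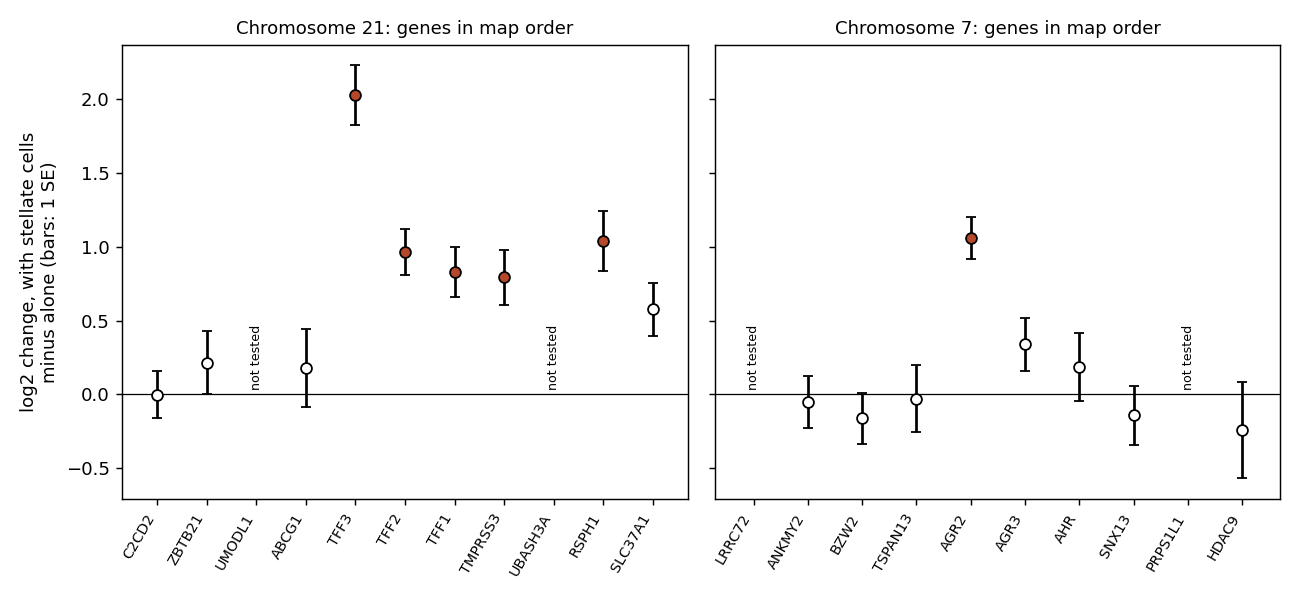
Log2 change, with stellate cells minus alone and bars of 1 SE, of the trefoil genes and their neighbours on chromosome 21 (left) and of AGR2, AGR3 and their neighbours on chromosome 7 (right), in map order with filled points past an adjusted p of 0.05. Each gene is read by its brightest probe. On chromosome 21 the tested values from TFF3 to SLC37A1 are all above 0.5, and on chromosome 7 AGR2 stands above neighbours between -0.24 and 0.19.

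Likeness to a gene's pattern was measured as the root mean square difference of log2 values centred over the 6 arrays, among 10775 other genes. Closest to the mean of the 6 tested genes were HID1, NYNRIN and SLC15A1, with differences of 0.077, 0.082 and 0.093, against a median over all genes of 0.549. SLC15A1, a peptide transporter of the intestinal brush border, was also among the 3 closest to TFF1, with CACNA1S and STARD10, and to AGR2, with LDHD and FCGRT. The nearest to TFF3 were CDC42EP5, ATP10B and MB at 0.217, 0.260 and 0.280, against a median over all genes of 1.06. The measure grows with the size of a gene's own pattern. That size was 1.04 (root mean square) for TFF3 and 0.51 for the mean of the 6 tested genes. NYNRIN and HID1 were also nearest to TFF2, with PDXDC2P-NPIPB14P. TWF2, ACSL1 and ZNF263 were nearest to AGR3, and FAXDC2, TARM1 and CDKN2B-AS1 to SPDEF. CACNA1S and FAXDC2 were not well above background on any array alone, so their likeness rests there on values near the floor.

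Markers of other cells that a gel or section could hold were read beside these values. For the counts below, 2.65% of all tested genes passed as higher and 2.11% as lower. Of 28 stellate and fibroblast markers 8 were tested, and 1 fell, COL6A1, while 0 rose by the limma test (1 at an unadjusted p under 0.05). That 1 was TAGLN, a smooth muscle actin-binding protein, detected on 3 of 3 stellate arrays and 0 of 3 others, with means of 5.77 and 4.91 and no overlap (adjusted p = 0.0674). DCN, the proteoglycan decorin, was detected on 2 stellate arrays and 0 others, and ACTA2, smooth muscle actin, had a value of -1.04 (adjusted p = 0.0526). The collagen gene COL1A2, FN1, LUM, FAP, PDGFRA, PDGFRB and THY1 were among 15 not detected on any array. The summed normalised intensity of the list was 12969 to 19352 with stellate cells and 12105 to 14604 alone, most of it from S100A4. Of 8 goblet cell markers 3 were tested and FCGBP rose, and MUC2, ZG16, ITLN1 and ATOH1 were not detected on any array. The goblet sum was 1072 to 1668 with stellate cells, most of it from FCGBP, and 430.4 to 519.9 alone. Of 8 acinar markers 3 were tested and 1 rose, the trypsinogen PRSS1, whose paralogues are near-identical, at 1.13 (adjusted p = 0.0086). The acinar sum, most of it from PRSS1 on every array, was 3496 to 4196 against 1407 to 2355. CPA1, CPB1, PNLIP and CTRC were not detected on any array. Of 15 endocrine markers 13 had a probe and 1, PAX6, was tested, at -0.39 (adjusted p = 0.443), with sums of 378 to 422 and 401 to 423. LYZ, at 0.91 (adjusted p = 0.0824), was the brightest of 8 blood and immune markers, 2 of which were tested. The sums of this list, most of them from the 2 tested genes, were 2227 to 2907 against 1450 to 1832. CD3E and HBA1 were not detected on any array. The part of these markers in the rise of the trefoil genes and AGR2 was not tested. In RNA of a tissue layer a change in the share of secreting cells and a change in RNA per cell cannot be told apart.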

How the data were processed

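Illumina BeadChips measured RNA from Capan1 cells cut out by laser. The deposited table gives probe intensity, not normalized between arrays, and a detection p-value against negative controls for each array, per the file headers. The software was GenomeStudio 2011.1 with BeadStudio, per the submitters' processing notes, which list no steps here. A deposited value table of the same arrays, linear intensity with nearly equal array medians and a normalization that is not stated, served as an alternative. Samples were grouped by title.

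In limma 3.58.1 under R 4.3.3, background was corrected with normexp using detection p-values (offset 16), followed by quantile normalization and log2. Probes detected (p under 0.05) on 3 or more of the 6 arrays were tested by lmFit and eBayes, the prior variance following intensity, two-sided, Benjamini-Hochberg adjusted over all 18165 probes at a threshold of 0.05. The test was checked on simulated data. No separate cultures are stated, so p-values reflect only how far these samples scatter, possibly for technical reasons, and 3 arrays a group limit the precision.

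Genes were named through the platform annotation and RefSeq (GRCh38.p14, used for names, gene order and promoters). A gene is represented by its probe with the highest mean, and one named as not detected on any array was judged by that probe alone. Of the tested probes 13986 had 1 symbol, 3 several and 4176 none. The text names all members, from each list the 4 genes with the smallest p and all that passed where 6 or fewer did, the neighbours, the 3 genes nearest in pattern and the brightest marker of each cell type. Genes named as not detected on any array, and EPCAM, COL6A1, TAGLN, DCN and ACTA2, were chosen after their values were seen. Members and lists were chosen with earlier results of these data known. Alternatives were other background corrections, scalings, filters and variance models, array weights, the authors' table, a replicate block and leaving out each array. No scaling between arrays and array brightness as a covariate were added after seeing the data. Figures were drawn with matplotlib 3.10.9.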

Additional observations from a re-analysis of the deposited data

How the results depend on the processing

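TFF3 and the dimmer probe of AGR2 passed under all 19 alternatives, with log2 changes of 1.63 to 2.20 and 1.56 to 2.19. The brighter probe of AGR2 passed under 18, TFF2 under 16 and TFF1 under 12 of 19, and AGR3 under none. SPDEF passed under 2, on omitting the third stellate array and with array weights (adjusted p = 0.0079). The 4 genes past the threshold became 2 with median scaling and 1 without scaling, and 2 to 5 when 1 array was left out, where 2 were left without replicate 3 alone. The cause was not tested. The sizes of dim probes also depended on the background step. Without background correction the log2 changes were 0.92 for ERN2, 0.50 for RSPH1, 0.31 for PDIA4 and 0.33 for the dimmer AGR3 probe. Whether each of these passed did not change.

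Over all probes 366 were higher and 364 lower. Median scaling gave 83 higher and 437 lower, no scaling 28 and 269, no intensity trend 201 and 191, array weights 1632 and 1725, and brightness as a covariate 94 and 103. Leaving out 1 array gave 87 to 1360 higher and 65 to 1398 lower, the most without replicate 3 with stellate cells. The list counts past the threshold then ran from 8 to 13 for mucus genes, 0 to 8 for folding, 2 to 6 for regulators and 0 to 4 for the breast cancer companions. Same-numbered replicates did not deviate together (correlations of -0.024, -0.031 and 0.080 across probes), so the numbers gave no pairing. With the replicate number as a block 4 of the genes passed, with 375 probes higher and 408 lower, and the block changed the call of no member gene, while CRELD2 lost its call (adjusted p = 0.0629) and the folding list went from 3 to 2. Of the genes named from lists, neighbours and likeness, signs turned for CDH1, to -0.17 with median scaling, -0.30 without scaling and between -0.094 and 0.41 without 1 array (-0.02 without replicate 1 with stellate cells), and for KRT8, to -0.0057 without scaling. The brighter AGR3 probe was at -0.054 without scaling. Median scaling and no scaling moved the median of all probes by -0.20 and -0.34, and relative to it CDH1 was at 0.032, KRT8 at 0.33 and AGR3 at 0.28 in both. A gene near background, such as REG4, is limited by signal, and without the filter its value was 0.10 (adjusted p = 0.685).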
